A study of Mus musculus with 24 samples.

Results

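The 9 genes described here are the class II genes Cd74, H2-Aa, H2-Ab1 and H2-Eb1 and the B cell genes Cd79a, Cd79b, Ms4a1, Ighm and Igkc. They were chosen by name as markers of B cells in RNA of sorted T cells, from 55335 genes in the count table, and all 9 passed the filter on low counts. The RNA came from mesenteric lymph node iNKT cells (invariant natural killer T cells), whose invariant receptor reads glycolipids on CD1d. The cells were sorted from C57BL/6J mice, offspring of dams given a fecal transplant (FT) from CD1d-knockout (KO) or wild-type (WT) donors, so the knockout lies in the donor of the microbes and not in the mouse whose cells were measured. Each mouse received alpha-galactosylceramide (aGC, a glycolipid that activates iNKT cells; 2 µg in 200 µL PBS) or PBS alone by oral gavage, and cells were taken at 24 h. The 8 groups of 3 libraries were aGC KO FT females, aGC WT FT females, PBS KO FT females, PBS WT FT females, aGC KO FT males, aGC WT FT males, PBS KO FT males and PBS WT FT males. The sort gate, the age of the mice and the number of mice behind a library were not given in the sources used here.

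MHC class II molecules are pairs of an alpha and a beta chain that present peptides to CD4 T cells. In the mouse H2-Aa and H2-Ab1 encode the chains of I-A, and H2-Eb1 encodes the beta chain of I-E, whose alpha chain gene is defective in C57BL/6 mice. Cd74 encodes the invariant chain, which occupies the peptide groove and guides class II molecules to the endosome. B cells, dendritic cells and macrophages express class II constantly or on activation through the coactivator Ciita, while mouse T cells make little of it. Ighm and Igkc encode the constant regions of the mu heavy chain and the kappa light chain of antibodies, Cd79a and Cd79b the signalling chains of the B cell receptor, and Ms4a1 the B cell surface protein CD20.

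The genes lie on several chromosomes in build GRCm38, by the GENCODE M21 annotation, so no shared neighbourhood joins them except for the class II chains. H2-Ab1 (34257689 to 34269419, plus strand), H2-Aa (34282744 to 34287823, minus strand) and H2-Eb1 (34305867 to 34316674, plus strand) stand next to each other on chromosome 17. Cd79a is on chromosome 7 (24897381 to 24902197, plus strand) and Cd79b on chromosome 11 (106311341 to 106314762, minus strand). Ms4a1 is on chromosome 19 (11249675 to 11266241, minus strand), Ighm on chromosome 12 (113418558 to 113422730, minus strand) and Igkc on chromosome 6 (70726435 to 70726966, plus strand). No exon of these 8 members overlapped an exon of another annotated gene.

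Class II promoters carry a set of shared boxes, of which the Y box, an inverted CCAAT box bound by NF-Y, is the simplest to find by its letters. Promoters of 3 of the 9 members (H2-Aa, H2-Eb1 and Cd79a) were taken from the RefSeq table for GRCm38.p6, which gives 250 bases before and 50 bases after each start. The promoter of Cd74, the class II member whose order over the groups differed from that of the chains, was left out and not searched. That of H2-Ab1 was not searched either. The motif CTGATTGG was searched on both strands. It occurred once in H2-Aa, on the strand of the gene 51 to 44 bases before the start, once in H2-Eb1, 62 to 55 bases before the start, and not in Cd79a. It occurred in 4.10% of all 32851 promoters of this length. Whether the motif bears on the levels was not tested. The sequences of the class II chains that were searched are shown with the motif in capitals. They are H2-Aa at chr17:34287774-34288073 (minus strand) and H2-Eb1 at chr17:34305617-34305916 (plus strand), each written 5′ to 3′ along the gene.
H2-Aa: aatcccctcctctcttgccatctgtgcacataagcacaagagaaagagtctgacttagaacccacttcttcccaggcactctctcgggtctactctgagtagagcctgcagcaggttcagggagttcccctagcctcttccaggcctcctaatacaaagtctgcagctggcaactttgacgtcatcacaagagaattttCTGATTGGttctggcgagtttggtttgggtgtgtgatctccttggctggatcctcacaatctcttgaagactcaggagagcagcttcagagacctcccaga
H2-Eb1: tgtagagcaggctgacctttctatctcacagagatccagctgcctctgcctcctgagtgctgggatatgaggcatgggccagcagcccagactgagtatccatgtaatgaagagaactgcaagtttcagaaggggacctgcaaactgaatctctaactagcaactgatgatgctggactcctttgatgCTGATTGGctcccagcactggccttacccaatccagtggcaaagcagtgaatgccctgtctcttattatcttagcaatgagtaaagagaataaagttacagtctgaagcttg

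The libraries held 9764931 to 37016768 counts each, so that 3 counts correspond to 0.0810 to 0.307 CPM (counts scaled to library size). Levels are given as CPM with TMM scaling, ± SD over 3 libraries. Changes are log2 differences ± SE from edgeR's quasi-likelihood fit across 15953 genes and 24 libraries, with p-values adjusted by Benjamini-Hochberg over all tested genes and a threshold of 0.05. The labels do not tie a group's libraries to separate mice, so p-values here measure only how these libraries spread, and that spread may be technical. In bulk RNA, fewer cells of a type and less RNA per cell cannot be told apart. The groups also stood apart in genes of another T cell type: Cd8a, a co-receptor of conventional CD8 T cells, averaged 189 to 245 CPM in aGC females and 136 to 287 CPM in PBS males, against 5.20 to 6.30 CPM in PBS females and 6.21 to 7.59 CPM in aGC males. This order crosses sex and treatment in both donors. The sex labels matched the sex-linked genes in all 24 libraries: Xist, which silences an X chromosome, had 8.76 to 48.3 CPM in females and at most 0.646 CPM in males. Ddx3y, on the Y chromosome, had 41.2 to 78.6 CPM in males and at most 0.471 CPM in females. Whether the sort gate or the treatment label differs between these groups was not tested. Each value below that sets aGC against PBS within a sex also sets a group high in Cd8a against one low in it. Between 53.5% and 66.6% of all tested genes passed the threshold between aGC and PBS within a donor and sex, and the libraries of the groups did not overlap for 61.3% in KO FT females, 57.0% in KO FT males and, with WT FT, 65.9% in females and 71.2% in males.

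**Figure D1:**
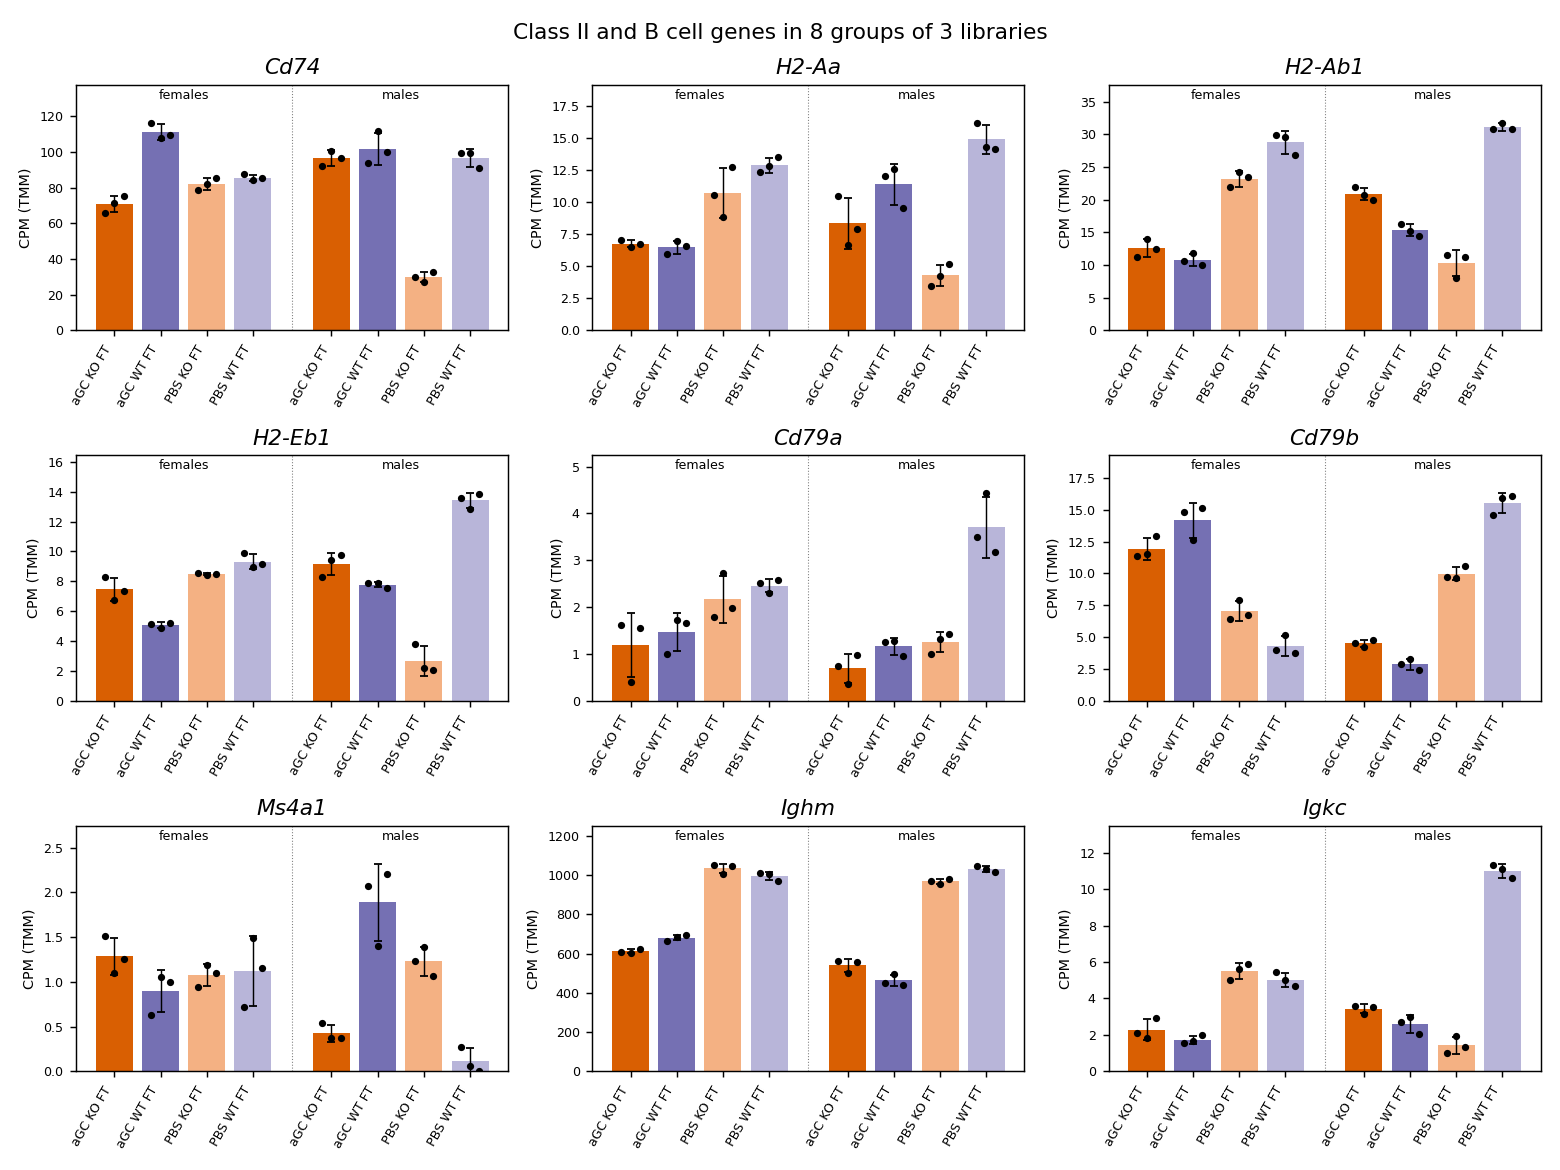
Level of each of the 9 genes in the 8 groups, in CPM with TMM scaling (bars, mean of 3 libraries; error bars, SD; points, libraries), females left and males right in each panel. Ighm was lower in every aGC group than in every PBS group, Cd79b was high in aGC females and PBS males, and the class II genes were lowest in PBS KO FT males, for H2-Ab1 with overlap with the aGC females.

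The 9 genes stood at very different levels, and the B cell members followed different orders over the groups. The 9 are therefore described as named genes and not as 1 measure of B cell RNA. Across the 8 group means of log2 level, Ms4a1 had a negative Pearson r with each other B cell member (-0.683 to -0.314). Ighm and Cd79a had an r of 0.776. Per kb of exon, Ighm averaged 419 CPM over the 24 libraries, in the range of the T cell receptor's CD3 chains, at 453 CPM per kb for Cd3d, 328 for Cd3g and 220 for Cd3e. Among the other members, Cd74 averaged 50.2 CPM per kb, Igkc 7.77, H2-Ab1 7.45, Cd79b 6.14, H2-Eb1 4.07, H2-Aa 2.496, Cd79a 1.21 and Ms4a1 0.162. The level of Ighm was 26.1 to 272 times that of Igkc and 179 to 1186 times that of Cd79a within a library, per kb. It was 1.37 to 2.60 times that of Cd3e, a narrower range.

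**Figure D2:**
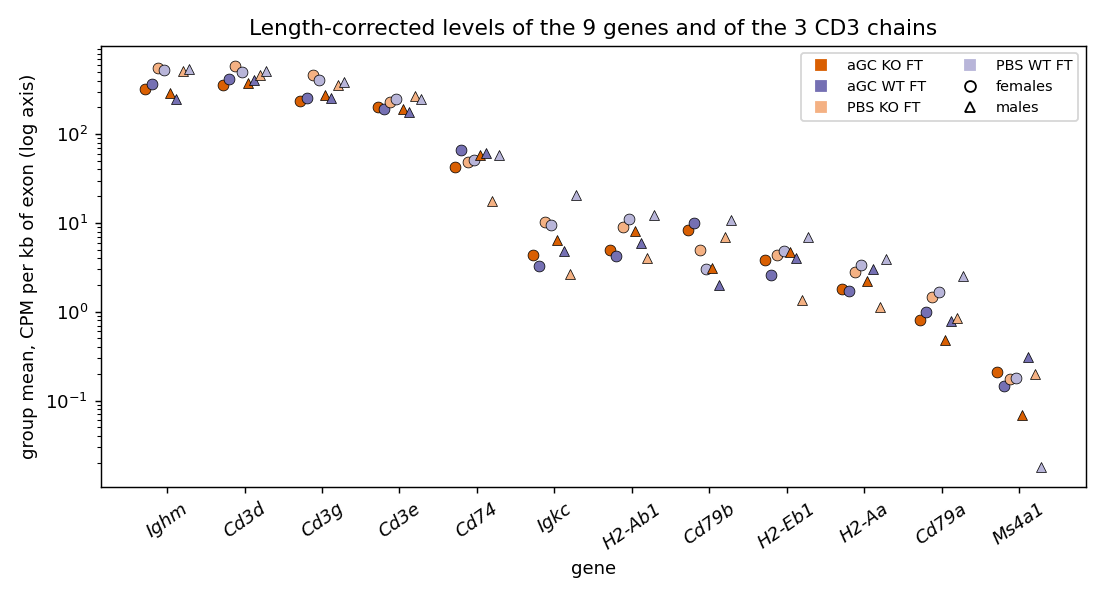
Group means of the 9 genes and of the CD3 chains in CPM per kb of exon, on a log axis (circles, females; triangles, males). Ighm lies at the level of the CD3 chains, at 245 to 548 CPM per kb, and Cd79a, at 0.477 to 2.54, lies far below it.

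B cell genes outside the 9 stood at very different levels. Pax5, the factor that fixes B cell identity, was at 0 in 18 of 24 libraries, with a highest group mean of 0.762 CPM in PBS WT FT females. A count of 0 allows up to 3 counts, or at most 0.307 CPM in a library. Of 25 B cell markers that are not members, 22 passed the filter, 6 had no group mean of 1 CPM and 5 reached 10 CPM in some group. Of these, Cd72 (201 CPM over all libraries), Tnfrsf13b (69.1), Ralgps2 (42.4) and Fcrl1 (19.0) were the highest in CPM, without correction for length. The 10 markers of T and iNKT cells all reached 10 CPM, including Trav11 and Traj18, segments of the invariant receptor, at means of 517 and 72.3 CPM.

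Ighm was the member with the clearest treatment pattern. It had 607, 602 and 622 CPM in aGC KO FT females, against 1051, 1005 and 1044 CPM in PBS KO FT females. In males of the same donor it had 560, 502 and 559 CPM after aGC, against 970, 955 and 980 CPM after PBS. Each PBS library lay above each aGC library. In WT FT females Ighm had 665, 684 and 695 CPM after aGC, against 1012, 1004 and 971 CPM after PBS. In WT FT males it had 450, 497 and 442 CPM after aGC, against 1048, 1030 and 1014 CPM after PBS. Again the groups did not overlap. Ighm fell by 0.76 ± 0.045 on the log2 scale in KO FT females (edgeR adjusted p = 1.24e-12), by 0.84 ± 0.045 in KO FT males (adjusted p = 2.18e-13), by 0.55 ± 0.045 in WT FT females (adjusted p = 2.63e-10) and by 1.15 ± 0.045 in WT FT males (adjusted p = 2.54e-16).

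Averaged over the sexes, Ighm fell by 0.80 ± 0.032 on the log2 scale in KO FT mice, to 575 CPM after aGC against 1001 CPM after PBS, and by 0.85 ± 0.032 in WT FT mice, to 572 CPM against 1013 CPM (edgeR adjusted p = 3.89e-16 and 5.55e-17). With the libraries of each group summed to 1 profile, which leaves 3 residual degrees of freedom, the changes were -0.80 ± 0.171 in KO FT mice (edgeR adjusted p = 0.0695) and -0.84 ± 0.171 in WT FT mice (adjusted p = 0.0265). In that fit Ighm in WT FT mice was the only member call in the averaged comparisons of treatment and of donor. Of the 15953 tested genes, 1179 rose and 439 fell there with aGC in WT FT mice and 306 rose and 25 fell in KO FT mice. In the donor comparisons 0 genes passed. The CD3 chains moved the same way: Cd3g fell by 0.65 ± 0.038 in KO FT mice and by 0.62 ± 0.038 in WT FT mice (edgeR adjusted p = 5.42e-13 and 6.73e-13). Across the 8 group means, log2 levels of Ighm and Cd3e had a Pearson r of 0.920 (n = 8 group means of the same libraries), against 0.449 for Ighm and Igkc and 0.776 for Ighm and Cd79a. Relative to the summed CD3 chains per kb, Ighm stood at 0.402 to 0.413 in aGC KO FT females, against 0.408 to 0.457 in PBS KO FT females. It stood at 0.416 to 0.426 in aGC WT FT females, against 0.446 to 0.465 in PBS WT FT females. In KO FT males it stood at 0.316 to 0.362 after aGC against 0.443 to 0.504 after PBS. In WT FT males it stood at 0.284 to 0.296 after aGC against 0.468 to 0.487 after PBS. The ratio overlapped between treatments in KO FT females and was lower after aGC, without overlap, in the other strata.

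Cd79b, the beta signalling chain, followed another order than its partner Cd79a. It had 11.4, 11.5 and 12.9 CPM in aGC KO FT females, against 6.42, 7.90 and 6.77 CPM in PBS KO FT females, and 14.8, 12.6 and 15.1 CPM in aGC WT FT females, against 3.98, 5.17 and 3.72 CPM in PBS WT FT females. It had 4.55, 4.20 and 4.75 CPM in aGC KO FT males, against 9.68, 9.67 and 10.6 CPM in PBS KO FT males, and 2.88, 3.27 and 2.42 CPM in aGC WT FT males, against 14.6, 15.9 and 16.1 CPM in PBS WT FT males. In females the aGC libraries were thus the high ones, and in males the low ones, without overlap. Cd79b rose by 0.77 ± 0.137 on the log2 scale in KO FT females (edgeR adjusted p = 4.5e-05) and by 1.72 ± 0.140 in WT FT females (adjusted p = 2.4e-10). It fell by 1.14 ± 0.143 in KO FT males (adjusted p = 4.09e-07) and by 2.44 ± 0.150 in WT FT males (adjusted p = 9.82e-13). The difference of the response between males and females was -1.91 ± 0.198 in KO FT mice and -4.16 ± 0.205 in WT FT mice (edgeR adjusted p = 6.67e-08 and 1.36e-13).

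The same groups were high in Cd79b and in Cd8a. Across the 8 group means their log2 levels had a Pearson r of 0.908, against 0.316 for Cd79b and Cd79a and 0.004 for Cd79b and Igkc (n = 8 each). Cd8a itself had log2 changes of 5.20 ± 0.081 in KO FT females and 5.31 ± 0.079 in WT FT females, and of -4.17 ± 0.078 in KO FT males and -5.53 ± 0.082 in WT FT males. Its part in the levels of Cd79b was not tested. Where groups with low Cd8a alone were compared, aGC KO FT males against PBS KO FT females, Cd79b fell by 0.63 on the log2 scale (edgeR adjusted p = 0.000737). Among groups high in Cd8a, aGC WT FT females against PBS WT FT males, its change was -0.13 (edgeR adjusted p = 0.382). Cd79b averaged 11.95 CPM in aGC KO FT females against 9.98 CPM in PBS KO FT males, both high in Cd8a. It averaged 2.86 CPM in aGC WT FT males against 4.29 CPM in PBS WT FT females, both low in Cd8a. Each of these comparisons also changes sex. H2-Ob, the beta chain of the class II editor H2-O, had the same high groups, with means of 13.4 to 21.0 CPM in aGC females and 12.3 to 35.3 CPM in PBS males, against 6.25 to 7.26 CPM in PBS females and 2.38 to 2.95 CPM in aGC males.

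**Figure D3:**
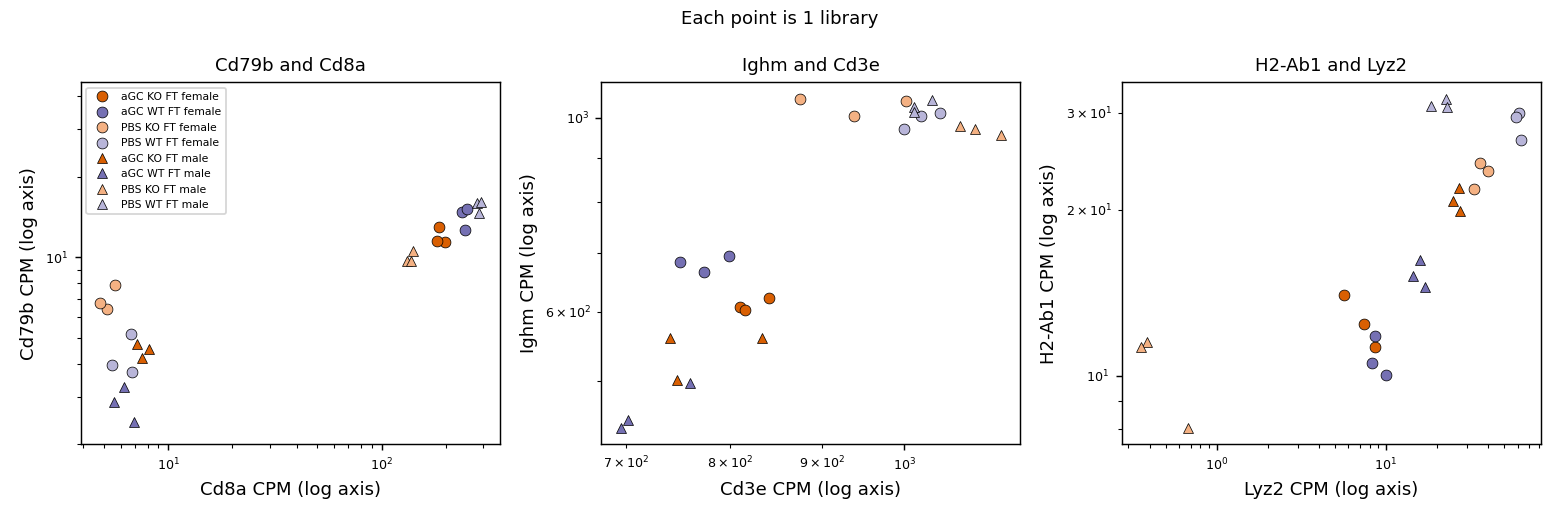
Cd79b against Cd8a, Ighm against Cd3e and H2-Ab1 against Lyz2, a lysozyme gene of macrophages, in each of the 24 libraries, in CPM on log axes (circles, females; triangles, males). Libraries of aGC females and PBS males, high in Cd8a, hold 9.67 to 16.1 CPM of Cd79b and the others 2.42 to 7.90 CPM, and PBS KO FT males lie apart at the low end of Lyz2.

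Cd79a was near the limit of detection, with 5 to 94 counts per library. Its libraries ranged from 0.392 to 1.61 CPM in aGC KO FT females, against 1.79 to 2.72 CPM in PBS KO FT females, and from 0.368 to 0.978 CPM in aGC KO FT males, against 1.01 to 1.42 CPM in PBS KO FT males. They ranged from 1.00 to 1.73 CPM in aGC WT FT females, against 2.30 to 2.57 CPM in PBS WT FT females, and from 0.955 to 1.27 CPM in aGC WT FT males, against 3.17 to 4.43 CPM in PBS WT FT males. The aGC libraries were thus below the PBS libraries of the same donor and sex in all 4 strata. Only the fall in WT FT males passed, by 1.67 ± 0.359 on the log2 scale (edgeR adjusted p = 0.000287). The changes were -0.86 ± 0.370 in KO FT females, -0.80 ± 0.395 in KO FT males and -0.75 ± 0.352 in WT FT females (adjusted p = 0.0534, 0.0924 and 0.0728). Averaged over the sexes Cd79a fell in both donors, by 0.83 ± 0.271 in KO FT mice and by 1.21 ± 0.251 in WT FT mice (adjusted p = 0.0115 and 0.000185).

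Ms4a1 had the fewest counts, 0 to 41 per library, and its order differed from that of Cd79a. PBS WT FT males, the group with the most Cd79a and Igkc, had the least Ms4a1, at 6, 1 and 0 counts. It had 2.07, 1.40 and 2.20 CPM in aGC WT FT males, against 0.277, 0.0554 and 0 CPM in PBS WT FT males, and 0.535, 0.368 and 0.373 CPM in aGC KO FT males, against 1.24, 1.39 and 1.07 CPM in PBS KO FT males. In males it therefore rose in WT FT mice, by 3.99 ± 0.543 on the log2 scale (edgeR adjusted p = 8.19e-07, a size that rests on the few counts of the PBS group), and fell in KO FT mice, by 1.54 ± 0.475 (adjusted p = 0.00892). In females the libraries overlapped, at 1.10 to 1.51 CPM after aGC against 0.947 to 1.19 CPM after PBS in KO FT mice, and 0.627 to 1.06 CPM after aGC against 0.720 to 1.49 CPM after PBS in WT FT mice.

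Igkc, the kappa light chain, differed more between groups than Ighm did. It had 2.12, 1.81 and 2.94 CPM in aGC KO FT females, against 4.995, 5.64 and 5.89 CPM in PBS KO FT females, and 1.57, 1.67 and 1.99 CPM in aGC WT FT females, against 5.44, 4.998 and 4.67 CPM in PBS WT FT females. In WT FT males it had 2.73, 3.00 and 2.06 CPM after aGC, against 11.3, 11.1 and 10.6 CPM after PBS. In these strata the PBS libraries were the high ones. KO FT males were the exception, with 3.61, 3.17 and 3.54 CPM after aGC, against 1.01, 1.93 and 1.33 CPM after PBS, the lowest group mean of all 8. Igkc fell by 1.25 ± 0.212 on the log2 scale in KO FT females, by 1.54 ± 0.215 in WT FT females and by 2.08 ± 0.206 in WT FT males, and rose by 1.21 ± 0.222 in KO FT males (edgeR adjusted p = 2.53e-05, 1.58e-06, 4.75e-09 and 7.21e-05). Across the 8 group means its log2 level had a Pearson r of 0.951 with H2-Ab1, 0.877 with H2-Aa and 0.857 with H2-Eb1, above the 0.717 with Cd79a (n = 8 group means each).

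H2-Ab1, the I-A beta chain, was the highest of the class II chains per kb. It had 11.3, 14.1 and 12.4 CPM in aGC KO FT females, against 21.9, 24.3 and 23.5 CPM in PBS KO FT females, and 10.5, 11.8 and 10.04 CPM in aGC WT FT females, against 30.0, 29.5 and 26.8 CPM in PBS WT FT females. In WT FT males it had 16.3, 15.2 and 14.5 CPM after aGC, against 30.9, 31.8 and 30.8 CPM after PBS. In each of these strata the aGC libraries held the lower values. In KO FT males it had 21.9, 20.8 and 19.9 CPM after aGC, against 11.5, 8.05 and 11.3 CPM after PBS, so the aGC libraries were the high ones. H2-Ab1 fell by 0.88 ± 0.116 on the log2 scale in KO FT females, by 1.41 ± 0.116 in WT FT females and by 1.02 ± 0.113 in WT FT males, and rose by 1.04 ± 0.118 in KO FT males (edgeR adjusted p = 8.51e-07, 2.76e-10, 2.9e-08 and 8.65e-08).

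H2-Aa and H2-Eb1 had similar orders at lower levels. H2-Aa ranged over 6.51 to 7.05 CPM in aGC KO FT females and 5.96 to 6.97 CPM in aGC WT FT females, against 8.83 to 12.8 CPM in PBS KO FT females and 12.3 to 13.5 CPM in PBS WT FT females. It ranged over 6.63 to 10.5 CPM in aGC KO FT males and 9.55 to 12.6 CPM in aGC WT FT males, against 3.49 to 5.16 CPM in PBS KO FT males and 14.2 to 16.2 CPM in PBS WT FT males. H2-Aa fell by 0.67 ± 0.169 on the log2 scale in KO FT females and by 0.99 ± 0.167 in WT FT females and rose by 0.96 ± 0.176 in KO FT males (edgeR adjusted p = 0.0018, 2.13e-05 and 7.03e-05). Its fall in WT FT males, by 0.39 ± 0.160 (adjusted p = 0.037), did not pass without aGC WT FT male replicate 3 (log2 change -0.26, adjusted p = 0.214), aGC WT FT male replicate 1 (-0.41, adjusted p = 0.059) or PBS WT FT male replicate 1 (-0.32, adjusted p = 0.126). Nor did it pass with DESeq2 (adjusted p = 0.0522) or without a filter on low counts (0.0624).

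H2-Eb1 ranged over 6.75 to 8.26 CPM in aGC KO FT females and 4.85 to 5.23 CPM in aGC WT FT females, against 8.43 to 8.57 CPM in PBS KO FT females and 8.96 to 9.87 CPM in PBS WT FT females. It ranged over 8.30 to 9.74 CPM in aGC KO FT males and 7.57 to 7.91 CPM in aGC WT FT males, against 2.05 to 3.80 CPM in PBS KO FT males and 12.9 to 13.8 CPM in PBS WT FT males. PBS WT FT males were the highest group and PBS KO FT males the lowest. H2-Eb1 fell by 0.88 ± 0.155 on the log2 scale in WT FT females and by 0.79 ± 0.149 in WT FT males and rose by 1.80 ± 0.167 in KO FT males (edgeR adjusted p = 3.38e-05, 6.92e-05 and 3.36e-09). Its change in KO FT females was -0.19 ± 0.153 (adjusted p = 0.3).

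Cd74, the invariant chain (chromosome 18, 60803848 to 60812652, plus strand; an exon overlaps the microRNA gene Mir5107, at 0 to 1 counts per library), was the most abundant class II gene per kb, and its order differed from that of the class II chains. It had 116, 108 and 109 CPM in aGC WT FT females, against 87.3, 84.1 and 85.3 CPM in PBS WT FT females, and 93.7, 112 and 100 CPM in aGC WT FT males, against 99.6, 99.4 and 90.8 CPM in PBS WT FT males. It had 66.0, 71.2 and 75.2 CPM in aGC KO FT females, against 78.7, 82.0 and 85.2 CPM in PBS KO FT females, and 91.9, 101 and 96.6 CPM in aGC KO FT males, against 30.1, 27.0 and 32.5 CPM in PBS KO FT males. PBS KO FT males were far below all other libraries. Cd74 rose by 0.38 ± 0.070 on the log2 scale in WT FT females and by 1.70 ± 0.076 in KO FT males (edgeR adjusted p = 7.17e-05 and 7.81e-15). Its change in WT FT males was 0.08 ± 0.070 (adjusted p = 0.351), and it fell by 0.21 ± 0.072 in KO FT females (adjusted p = 0.0167). That fall did not pass without PBS KO FT female replicate 3 (adjusted p = 0.0642), aGC KO FT female replicate 1 (0.0944) or aGC KO FT female replicate 2 (0.0595). Per kb, Cd74 stood at 3.52 to 8.34 times the sum of H2-Aa, H2-Ab1 and H2-Eb1 in aGC libraries, against 2.37 to 3.03 times in PBS libraries, without overlap between the treatments.

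Ranked by group mean, the members fell into different orders. For Ighm the PBS groups came first and the aGC groups last, and neighbours overlapped only between PBS KO FT females and PBS WT FT males and between PBS WT FT females and PBS KO FT males. For Cd79b the order was PBS WT FT males, aGC WT FT females, aGC KO FT females, PBS KO FT males, PBS KO FT females, aGC KO FT males, PBS WT FT females and aGC WT FT males, where the first and the second, the second and the third, and the sixth and the seventh overlapped. For H2-Ab1 and Igkc PBS WT FT males came first and PBS KO FT males last. The lowest 3 groups (aGC KO FT females, aGC WT FT females and PBS KO FT males) overlapped with their neighbours among themselves. The next above them, aGC WT FT males, overlapped with aGC KO FT females for Igkc and not for H2-Ab1. For Cd74 the first 4 groups (aGC WT FT females, aGC WT FT males, PBS WT FT males and aGC KO FT males) overlapped with their neighbours, and PBS KO FT males stood alone below aGC KO FT females.

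Counted together, the members passed in differing directions in the aGC comparisons within a donor and sex, against a high share of all genes. In KO FT females 1 rose, 5 fell and 3 did not pass, where 56.0% of all tested genes passed (27.7% rose and 28.3% fell). The number passing was near the share of all genes. In KO FT males 5 rose, 3 fell and 1 did not pass, where 53.5% of all genes passed (26.8% rose and 26.7% fell). In WT FT females 2 rose, 5 fell and 2 did not pass, where 58.4% of all genes passed (28.6% rose and 29.8% fell). In WT FT males 1 rose, 7 fell and 1 did not pass, where 66.6% passed (31.7% rose and 34.9% fell). The median log2 change of the members was -0.67 in KO FT females, 0.96 in KO FT males and, with WT FT, -0.75 in females and -1.02 in males, against -0.01, -0.03, -0.05 and -0.09 over all tested genes in the same order. Averaged over the sexes, 2 rose, 2 fell and 5 did not pass in KO FT mice, where 58.1% of all genes passed (28.1% rose and 30.1% fell). In WT FT mice 2 rose, 7 fell and 0 did not pass, where 68.4% passed (30.9% rose and 37.5% fell).

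**Figure D4:**
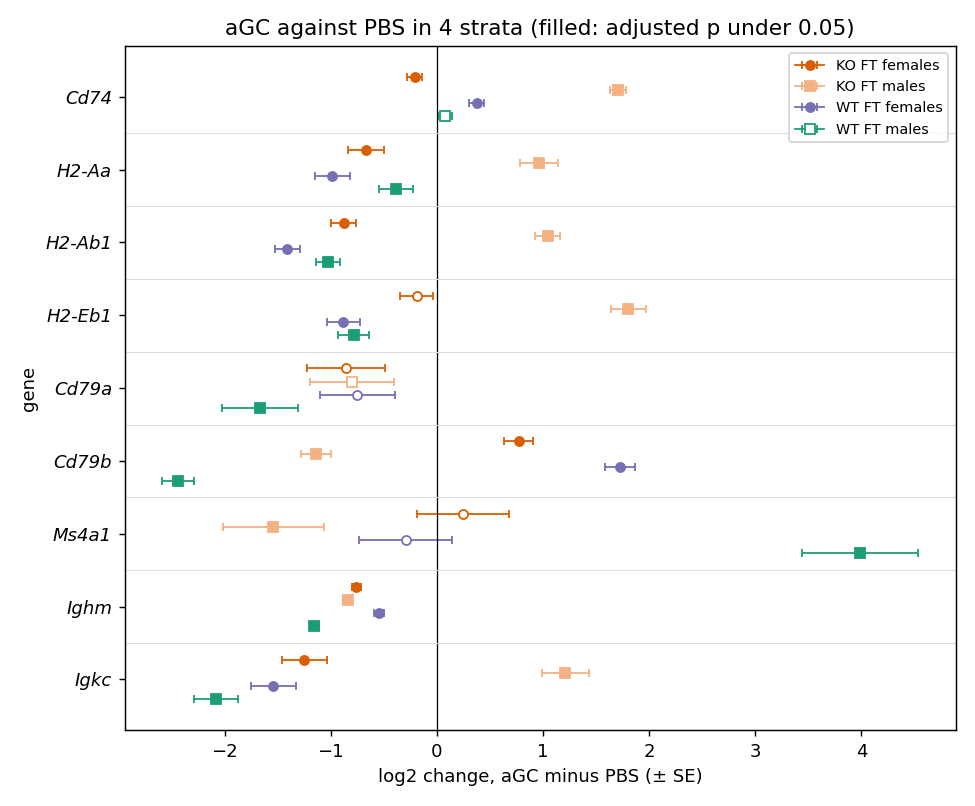
Log2 change between aGC and PBS for each gene (aGC minus PBS, ± SE, edgeR) in the females and males of each donor, filled where the adjusted p was under 0.05. Ighm lies left of 0 in all 4 strata, H2-Aa, H2-Ab1, H2-Eb1 and Igkc lie left of 0 except in KO FT males, and Cd79b lies right of 0 in females and left in males.

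Between donors, the males given PBS differed in the most members. Of the 9 members 1 was higher and 7 were lower in PBS KO FT males than in PBS WT FT males, where 42.5% of all tested genes passed (21.1% higher and 21.4% lower). The log2 difference was -2.89 ± 0.216 for Igkc, -2.35 ± 0.165 for H2-Eb1, -1.80 ± 0.172 for H2-Aa, -1.71 ± 0.075 for Cd74, -1.62 ± 0.116 for H2-Ab1, -1.56 ± 0.353 for Cd79a and -0.64 ± 0.132 for Cd79b (edgeR adjusted p between 2.09e-13 and 0.00111). Ms4a1 was the one higher in PBS KO FT males, by 3.39 ± 0.551 (adjusted p = 3.89e-05), and Ighm, at 968 ± 12.6 CPM against 1031 ± 16.7 CPM, did not pass (adjusted p = 0.108). The Ighm difference did pass, as lower, with relative log expression scaling (-0.108, edgeR adjusted p = 0.0452) and with DESeq2 (-0.109, adjusted p = 0.0261).

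In females given PBS 1 member was higher and 1 lower in KO FT mice, where 29.8% of all genes passed (14.9% in each direction). Cd79b was higher, at 7.03 ± 0.773 CPM against 4.29 ± 0.774 CPM (difference 0.71 ± 0.142, edgeR adjusted p = 0.000699), and H2-Ab1 was lower, at 23.2 ± 1.23 CPM against 28.8 ± 1.72 CPM (difference -0.31 ± 0.109, adjusted p = 0.0338). The H2-Ab1 call was lost without any one of 5 of the 6 libraries compared, with an adjusted p of up to 0.117. After aGC, 1 member was higher and 2 were lower in KO FT females, where 43.4% of all genes passed (19.0% higher and 24.4% lower): H2-Eb1 was higher by 0.55 ± 0.160, and Cd74 (difference -0.65 ± 0.072) and Ighm (-0.16 ± 0.045, not called without a filter on low counts, edgeR adjusted p = 0.166) were lower. In males after aGC, 3 members were higher and 2 lower in KO FT mice, where 46.5% of all genes passed (24.2% higher and 22.4% lower). The higher ones were Cd79b (0.66 ± 0.158), H2-Ab1 (0.45 ± 0.115) and Ighm (0.22 ± 0.045), and the lower ones were Ms4a1 (-2.14 ± 0.470) and H2-Aa (-0.45 ± 0.166). The H2-Aa call (edgeR adjusted p = 0.0298) was lost without a filter on low counts (0.129) and without any one of 4 of the 6 libraries compared (adjusted p of 0.0783 to 0.137).

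**Figure D5:**
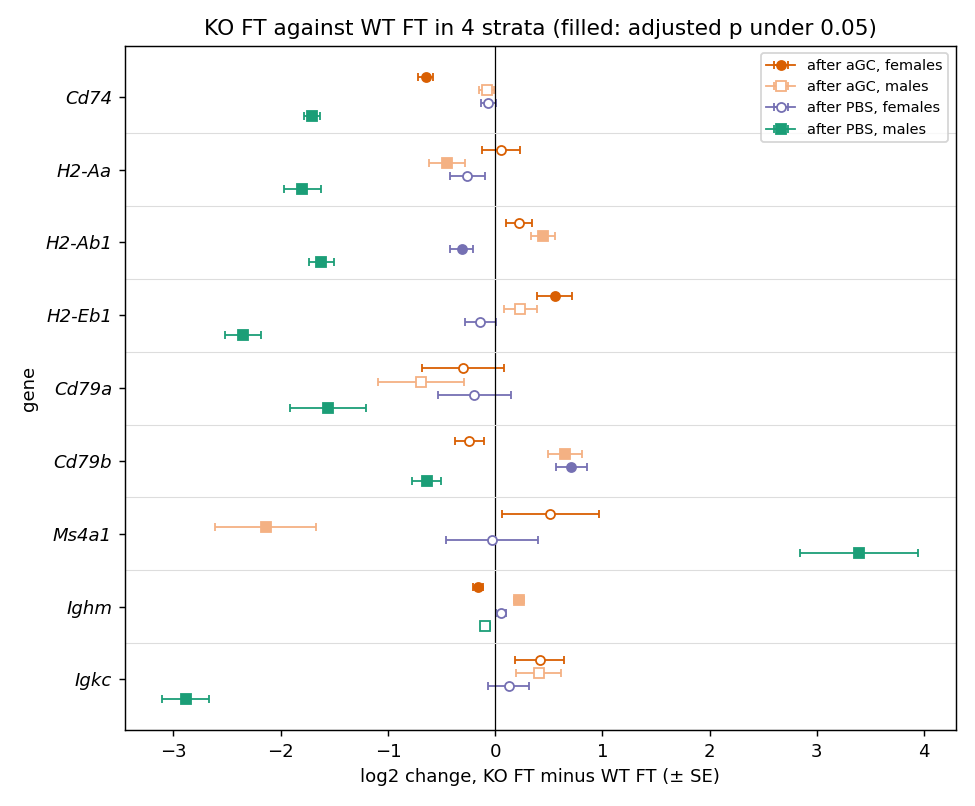
Log2 difference between KO FT and WT FT for each gene (KO FT minus WT FT, ± SE, edgeR) after aGC and after PBS in females and in males, filled where the adjusted p was under 0.05. The class II genes and Igkc after PBS in males lie between -2.89 and -1.62, and Ighm lies between -0.16 and 0.22 in all 4 strata.

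Averaged over the sexes, 1 member was higher, 6 were lower and 2 did not pass after PBS in KO FT mice, where 29.4% of all genes passed (14.6% higher and 14.8% lower). After aGC 3 were higher, 2 lower and 4 did not pass, where 51.9% passed (25.4% higher and 26.5% lower). Of these, Igkc (higher) and Ms4a1 (lower) lost their calls without a filter on low counts (edgeR adjusted p = 0.143 and 0.164) and without several single libraries. The differences after PBS were unequal between the sexes: Cd74 averaged 55.9 CPM in PBS KO FT mice against 91.1 CPM in PBS WT FT mice (difference -0.88 ± 0.051, edgeR adjusted p = 4.86e-11), while within females it was -0.06 ± 0.070 (adjusted p = 0.541). With 1 profile per group no member passed in either averaged donor comparison, where 0 of the 15953 tested genes passed.

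The difference of the response to aGC between the sexes and between the donors was tested directly. In KO FT mice the difference between males and females passed for 7 members, 5 positive and 2 negative (46.7% of all genes, 25.3% positive and 21.4% negative), led by Igkc at 2.46 ± 0.307, H2-Eb1 at 1.99 ± 0.226, H2-Ab1 at 1.92 ± 0.166, Cd74 at 1.91 ± 0.104 and H2-Aa at 1.63 ± 0.245. In WT FT mice it passed for 5 members, 2 positive and 3 negative (47.7% of all genes, 24.2% positive and 23.5% negative), near the share of all genes, and for 3 without a filter on low counts. Of the 5, Cd74 (-0.30, adjusted p from edgeR without the filter 0.141) and H2-Aa (0.60, without the filter 0.0771) lost their call there. Cd74 also lost it without aGC WT FT female replicate 1 or aGC WT FT male replicate 1. H2-Aa lost it without any one of 8 of the 12 WT FT libraries. The difference between the donors, KO FT minus WT FT, passed for 6 members, 5 positive and 1 negative (44.5% of all genes, 21.9% positive and 22.6% negative): Igkc at 1.79 ± 0.214, H2-Eb1 at 1.64 ± 0.156, H2-Ab1 at 1.30 ± 0.115, H2-Aa at 0.83 ± 0.168, Cd74 at 0.52 ± 0.072 and Ms4a1 at -2.49 ± 0.480. For Ighm the donor difference was 0.05 ± 0.045 (edgeR adjusted p = 0.381). These differences include the low values of PBS KO FT males, whose level enters each of them but the WT FT one.

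Other genes of the class II pathway changed in both directions in every stratum. Of 20 genes of the pathway that are not members, 18 passed the filter and 14 had a group mean over 10 CPM. In KO FT mice 8 rose and 6 fell in females and 2 rose and 4 fell in males, and in WT FT mice 8 rose and 4 fell in females and 2 rose and 12 fell in males. Of all tested genes, 27.7% rose and 28.3% fell in KO FT females, and 26.8% and 26.7% in KO FT males. With WT FT, 28.6% rose and 29.8% fell in females, and 31.7% and 34.9% in males. The median log2 change of the 18 was 0.05 in KO FT females, -0.12 in KO FT males and, with WT FT, 0.20 in females and -0.62 in males, against -0.01, -0.03, -0.05 and -0.09 over all tested genes. The highest in CPM were H2-DMa, the alpha chain of the peptide editor H2-DM, at 128 CPM over all libraries, and Ctss, the protease that trims the invariant chain, at 124 CPM. Next were Nfyc, a subunit of NF-Y, at 103 CPM, and Rfxap, part of the RFX complex on class II promoters, at 70.0 CPM. H2-DMa rose in females, by 0.27 ± 0.067 in KO FT and 0.96 ± 0.066 in WT FT mice, and fell in males, by 0.29 ± 0.067 in KO FT and 0.52 ± 0.066 in WT FT mice (edgeR adjusted p = 0.00133, 1.12e-11, 0.000764 and 2.58e-07). Ctss fell by 0.27 ± 0.062 in KO FT females, 0.57 ± 0.062 in KO FT males and 0.97 ± 0.062 in WT FT males, and its change in WT FT females was -0.09 ± 0.061 (adjusted p = 0.209). Ciita, the class II coactivator, had group means of 1.10 to 4.38 CPM, lowest in aGC WT FT males and highest in PBS WT FT males.

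Of the B cell markers that are not members, more fell than rose after aGC in KO FT females and in both sexes with WT FT, and about as many rose as fell in KO FT males. In KO FT mice 1 rose and 13 fell in females and 5 rose and 6 fell in males, and in WT FT mice 3 rose and 9 fell in females and 1 rose and 11 fell in males, of 22 that passed the filter. Their median log2 change was -1.17 in KO FT females, 0.05 in KO FT males and, with WT FT, -0.68 in females and -0.84 in males. In KO FT males these counts and the median were near those of all genes, of which 26.8% rose and 26.7% fell, with a median of -0.03. Of all tested genes, 27.7% rose and 28.3% fell in KO FT females. With WT FT, 28.6% rose and 29.8% fell in females, and 31.7% and 34.9% in males. Cd72, a C-type lectin receptor of B cells, fell in all 4 strata, by 0.81 ± 0.041 in KO FT females, 0.15 ± 0.040 in KO FT males and, with WT FT, 0.70 ± 0.040 in females and 0.85 ± 0.040 in males (adjusted p from edgeR between 8.12e-15 and 0.00245). Tnfrsf13b, which encodes the BAFF and APRIL receptor TACI, also fell in all 4, by 1.21 ± 0.079, 0.48 ± 0.077, 0.66 ± 0.077 and 0.89 ± 0.077 in the same order of strata. Ralgps2 fell by 0.48 ± 0.114 in KO FT females and 0.90 ± 0.115 in WT FT males, and its changes in KO FT males and WT FT females were 0.10 ± 0.114 and -0.03 ± 0.111 (adjusted p = 0.505 and 0.829). Fcrl1 rose in males of both donors, by 1.23 ± 0.138 in KO FT and 0.48 ± 0.132 in WT FT mice, and fell by 0.80 ± 0.139 in WT FT females.

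Markers of other cells that carry class II moved with some of these groups. The summed level of 10 monocyte and macrophage markers was 11.5 to 15.1 CPM in aGC females and 51.0 to 74.8 CPM in PBS females. In males it was 37.1 to 43.0 CPM in aGC KO FT and 26.2 to 29.0 CPM in aGC WT FT libraries, against 12.2 to 13.6 CPM in PBS KO FT and 36.5 to 41.5 CPM in PBS WT FT libraries. Lyz2 was the largest part of this sum in every group except PBS KO FT males, where it averaged 0.473 CPM, against 21.4 CPM in PBS WT FT males. In PBS KO FT males the largest part was Cd14, a lipopolysaccharide receptor, at 5.22 CPM, against 0.960 CPM in PBS WT FT males. Thus PBS KO FT males, lowest in Cd74, H2-Aa, H2-Ab1, H2-Eb1 and Igkc, were also lowest in Lyz2 and in Csf1r, at 0 CPM. C1qb and C1qc, at 2.64 and 1.995 CPM in PBS KO FT males, were instead lowest in aGC WT FT females, at 0.558 and 0.362 CPM. The highest group mean was 0.543 CPM for Adgre1 and 0.163 CPM for Fcgr1, against 4.22 for Csf1r, 5.80 for C1qb and 5.29 for C1qc. Of the 8 of these markers that passed the filter, 0 rose and 6 fell in KO FT females and 4 rose and 1 fell in KO FT males. With WT FT 2 rose and 6 fell in females and 0 rose and 5 fell in males. Among all tested genes 27.7% rose and 28.3% fell in KO FT females, and 26.8% and 26.7% in KO FT males. The shares with WT FT were 28.6% and 29.8% in females and 31.7% and 34.9% in males. In males of both donors the number passing was near the share of all genes (53.5% in KO FT and 66.6% in WT FT). The part of such cells in the class II values was not tested.

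Dendritic and plasma cell markers were low. The 10 dendritic cell markers summed to 10.9 to 23.7 CPM over all libraries, most of it Xcr1 at 11.8 CPM, and Clec9a, Cd209a and Clec10a were at 0 in 22, 18 and 23 of 24 libraries. The 10 plasma cell markers summed to 11.0 to 32.6 CPM in aGC libraries and 30.2 to 46.9 CPM in PBS libraries, most of it Sdc1 at 24.1 CPM. This sum thus mainly follows 1 gene and is not a measure of plasma cells. In 4 of the 10 markers no group mean reached 1 CPM. Jchain, the joining chain of secreted antibodies, reached 4.10 CPM in PBS WT FT males and averaged at most 1.64 CPM in the other groups, at 0 in 6 libraries. Igha, the constant region of IgA, averaged 9.95 CPM in PBS KO FT males, the group with the least Igkc, and at most 1.24 CPM in any other group. The 8 neutrophil and red cell markers summed to 0.176 to 7.24 CPM.

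None of the genes most like the members over the 8 group means was on the lists of B cell markers or class II genes. Among 9622 genes with at least 5 CPM, the mean log2 profile of the class II members was matched best by Nek4 (Pearson r 0.956), Tmsb15b1 (0.938), Lyz2 (0.925), Mx1 (0.908), Zfp97 (0.902) and Gm10778 (0.884). The mean profile of the B cell members was matched best by Klrd1, an inhibitory receptor subunit of natural killer and T cells (0.969), Ostf1 (0.966), Ascc1 (0.965), Tm6sf1 (0.961), Icam2 (0.956) and Tldc1 (0.956). These values describe 8 points that share their libraries and carry no test.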

How the data were processed

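The authors deposited 1 table of expected counts (whole numbers). Per the submitters' processing notes it was made with kallisto on GRCm38 (mm10); no source used here gives the version or the annotation. Libraries were made with Nextera XT, per the labels' protocols, which does not keep the strand. Of 55335 genes, 55154 matched a symbol in GENCODE M21. The 24 libraries were grouped by treatment, donor and sex from their titles.

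The counts were rounded and filtered with edgeR's filterByExpr (minimum count 10, minimum total 15), which left 15953 genes, scaled by TMM, and fitted with edgeR's quasi-likelihood model with 8 group means and 16 residual degrees of freedom. The 15 comparisons were contrasts of these means, tested two-sided, and an SE is a log2 change over the square root of its F. The fit was tested on simulated data. Levels per kb used the union of annotated exons, and likeness was computed on log2 CPM (prior count 2). Versions were edgeR 4.0.16, DESeq2 1.42.0 and limma 3.58.1 under R 4.3.3, and pandas 2.3.3, numpy 2.4.6 and matplotlib 3.10.9 under Python 3.11.15.

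Named genes were the 9 members in every comparison, up to 4 genes per marker list with the highest CPM, and the 6 genes most like each of 2 profiles; H2-Ob, Ciita, Pax5, Cd14, Xist, Ddx3y, Trav11, Traj18, Cd3d, Cd3e, Adgre1, Fcgr1, Clec9a, Cd209a and Clec10a were named after their values were seen. The members and lists were chosen with earlier results of these data known. Alternatives were DESeq2, relative log expression scaling, no filter, a replicate block, 1 profile per group, CPM on raw totals and leaving out each library. Comparisons among groups alike in Cd8a were added after seeing the data. Pairs of libraries within a group differed beyond counting noise (chi-square per degree of freedom 3.89 to 14.34). This cannot tell whether they came from separate mice, because separate preparations of 1 cell pool can differ too. All 24 libraries were kept.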

Additional observations from a re-analysis of the deposited data

Results flagged for a closer look

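Tests of the difference itself passed for the following members (log2 response to aGC, edgeR, adjusted p under 0.05 over all tested genes), where 46.7% of all genes passed for the sexes in KO FT mice, 47.7% for the sexes in WT FT mice and 44.5% for the donors. In KO FT mice the response in males minus that in females was 1.91 for Cd74, 1.63 for H2-Aa, 1.92 for H2-Ab1, 1.99 for H2-Eb1 and 2.46 for Igkc, and -1.91 for Cd79b and -1.79 for Ms4a1, the last not called without a filter on low counts (adjusted p = 0.117) or without any one of 4 libraries. In WT FT mice it was -0.30 for Cd74, 0.60 for H2-Aa, -4.16 for Cd79b, 4.28 for Ms4a1 and -0.61 for Ighm. Those of Cd74 and H2-Aa were lost without a filter on low counts (adjusted p = 0.141 and 0.0771), without either of 2 libraries for Cd74 (0.0531 and 0.072) and without any one of 8 for H2-Aa (0.053 to 0.0897). The response in KO FT minus that in WT FT mice, averaged over the sexes, was 0.52 for Cd74, 0.83 for H2-Aa, 1.30 for H2-Ab1, 1.64 for H2-Eb1, 1.79 for Igkc and -2.49 for Ms4a1. The libraries behind these differences share groups, so the 3 sets are not independent of each other. With 1 profile per group none of the 6 donor differences passed, and 0 of the 15953 tested genes did.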

How the results depend on the processing

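Of the log2 changes of the 9 members in the 15 comparisons, DESeq2 left 131 on their side of the threshold and relative log expression scaling 133. Without each library in turn the number of members called ranged over 7 to 8 for aGC against PBS in WT FT females, 7 to 8 in WT FT males, 5 to 7 in KO FT females and 8 to 9 in KO FT males. It ranged over 1 to 2 for KO FT against WT FT in females and 8 to 8 in males after PBS, and 3 to 3 in females and 4 to 5 in males after aGC. Averaged over the sexes it ranged over 9 to 9 for aGC in WT FT mice, 4 to 5 in KO FT mice, 7 to 7 for donors after PBS and 3 to 5 after aGC. For the differences of the response it ranged over 3 to 6 by sex in WT FT mice, 6 to 7 by sex in KO FT mice and 6 to 6 by donor. Without a filter on low counts 1 member was called for donors after PBS in females, 3 for donors after aGC over both sexes, and 3 for the difference by sex in WT FT mice, and the cause was not tested.

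With 1 profile per group the counts were 1 for aGC in WT FT mice and 0 for aGC in KO FT mice, for donors after PBS, for donors after aGC and for the difference by donor. In the 4 comparisons with 0, taken in that order, that edgeR fit had 2695, 255, 1306 and 628 genes at an unadjusted p under 0.05. At the adjusted threshold 306 of the 15953 genes rose and 25 fell for aGC in KO FT mice. For donors and for the difference by donor 0 of all genes passed, so the counts of 0 members are those of all genes. The fit has 3 residual degrees of freedom. Within the groups high in Cd8a the change of Igkc in KO FT mice was 0.64 (adjusted p = 0.0256, edgeR), which compares aGC females with PBS males, and within the groups low in Cd8a it was -0.68 (adjusted p = 0.00713), which compares aGC males with PBS females, against -0.02 over all groups.

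Libraries that share a replicate number did not deviate together (median r -0.02, from -0.27 to 0.43), so the numbers were not taken as pairs. With the replicate block 134 of the 15 comparisons' member changes kept their side, and that of Ms4a1 for donors after aGC over both sexes did not (-0.81, adjusted p = 0.0533). Cd79a, with 5 to 94 counts, and Ms4a1, with 0 to 41, are limited by depth.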
